A study of Mus musculus with 6 samples.

Results

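S phase and DNA replication genes encode the proteins that prepare replication origins, unwind and copy DNA, supply its nucleotides and repack it into chromatin. A list of 50 such mouse genes was followed in the colon of mice lacking HDAC1 and HDAC2 in intestinal epithelial cells. Members were found as probe sets whose only gene symbol in the platform annotation was that of a listed gene. This gave 108 probe sets for 49 genes, out of 45037 probe sets and 18193 genes in all, and no probe set carried the symbol of Chaf1a alone. The brightest probe set, by mean signal of the 6 arrays, stands for each gene, and the other 59 probe sets are described separately. The HDAC1/2 KO group comprised 3 mice, 4 months old by the methods, homozygous for floxed Hdac1 and Hdac2 and carrying villin-Cre, a transgene that expresses the recombinase in epithelial cells of the small intestine and colon. The control group comprised 3 mice that the labels call wild type, and neither group was treated. The deletion was thus directed to the epithelium and not to the other cells of the colon, and how complete it was there was not measured by these arrays. The methods name 3 mice in each group, and the sample titles number the 3 arrays of a group as replicates. By the labels the RNA came from colon epithelium, and by the methods it was total RNA of the colon.

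Chromosome replication starts when the origin recognition complex, Cdc6 and Cdt1 load the MCM helicase ring onto DNA in G1. The kinases Cdc7 and Cdk2 then switch the ring on, Cdc45 and the GINS complex join it, and polymerase alpha-primase, polymerase epsilon and polymerase delta copy the strands with the help of the sliding clamp PCNA, its loader RFC and the single-strand binding complex RPA. E2F transcription factors drive many of these genes at S phase entry and are held in check by the Rb family of pocket proteins, which recruit histone deacetylases. In the colon, replicating epithelial cells lie in the lower part of the crypts, and activated lymphocytes and other mucosal cells can also divide.

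Promoter sequences are shown because some of them hold the letters that E2F factors are known to bind. RefSeq promoter windows (GRCm38.p6, 250 bases before to 50 after a transcript start) were at hand for 41 of the 50 genes. The letters TTTCGCGC, TTTGGCGC, TTTCCCGC or TTTGCCGC, on either strand, stood in at least 1 window of 16 of these 41 genes (39%), against 3.81% of the 14452 genes of the arrays with a window. Matches of these motifs can overlap one another, and windows were not matched for base composition. The letters CCAAT stood in 63.4% of the members with a window and in 42% of the genes of the arrays, and the letters TTTGAA, the core of the cell cycle homology element of G2 and M phase promoters, in 17.1% of the members and 15.7% of the genes of the arrays. The stretches below lie before the start, with all matches to the E2F letters in capitals and each read on the strand of its gene. Those of Mcm5 (chr8:75109334-75109393, plus strand), Mcm6 (chr1:128359719-128359778, minus strand), Mcm7 (chr5:138172015-138172074, minus strand), Cdc6 (chr11:98907987-98908046, plus strand), Uhrf1 (chr17:56304102-56304161, plus strand) and E2f3 (chr13:29986064-29986123, minus strand) belong to genes that rose in HDAC1/2 KO colon. Those of Orc1 (chr4:108579394-108579453, plus strand), Pola1 (chrX:93632260-93632319, minus strand) and Gins3 (chr8:95633492-95633551, plus strand) belong to genes whose brightest probe set did not pass the test.
Mcm5: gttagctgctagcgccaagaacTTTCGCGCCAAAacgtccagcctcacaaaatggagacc
Mcm6: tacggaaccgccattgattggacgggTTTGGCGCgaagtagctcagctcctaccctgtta
Mcm7: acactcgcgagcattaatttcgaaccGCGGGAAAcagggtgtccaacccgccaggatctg
Cdc6: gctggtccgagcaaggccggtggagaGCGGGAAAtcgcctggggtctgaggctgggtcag
Uhrf1: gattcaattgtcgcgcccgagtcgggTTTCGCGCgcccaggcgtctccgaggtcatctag
E2f3: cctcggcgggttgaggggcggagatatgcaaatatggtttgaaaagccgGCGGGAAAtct
Orc1: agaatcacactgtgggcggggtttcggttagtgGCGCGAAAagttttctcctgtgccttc
Pola1: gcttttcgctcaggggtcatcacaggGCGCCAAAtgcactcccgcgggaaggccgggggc
Gins3: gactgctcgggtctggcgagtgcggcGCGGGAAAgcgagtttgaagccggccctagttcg
The capitals nearest the start in Mcm6, Orc1, E2f3 and Gins3 end 40, 20, 4 and 34 bases before the start, and those of the other genes shown 131 to 178 bases before it. A match is a description of the letters and not evidence of a bound site.

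S phase and DNA replication genes rose in HDAC1/2 KO colon as a group, and none fell. Of the 49 genes measured, 43 passed limma's test (adjusted p under 0.05, Benjamini-Hochberg over all probe sets) and were higher, and 6 did not pass. Among all 18193 genes 50.4% passed, 21.9% being higher and 28.4% lower. The median log2 fold change, HDAC1/2 KO minus control, was 0.52 over the 49 genes, with a range from -0.10 to 1.94, and -0.02 over all genes. The lowest KO array was above the highest control array in 45 of 49 members, against 26.9% of all genes, and 60.9% of all genes did not overlap in either direction. Changes were mostly below 2-fold: 6 members rose more than 2-fold, namely E2f2, Rrm2, Cdc7, Uhrf1, Mcm10 and Brca1, where 2.25% of all genes rose and 1.82% fell as far. The mean log2 signal over the 49 genes was 9.47, 9.48 and 9.47 on the KO arrays and 8.92, 8.87 and 8.92 on the control arrays. Mean log2 signals of the members ran between 6.56 (Tyms) and 12.49 (Pcna), with a median of 9.11, and 11 of the 49 lay below 8.04, the median of all genes. In RNA of whole tissue, more cells that express these genes and more RNA per cell cannot be told apart.

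**Figure D1:**
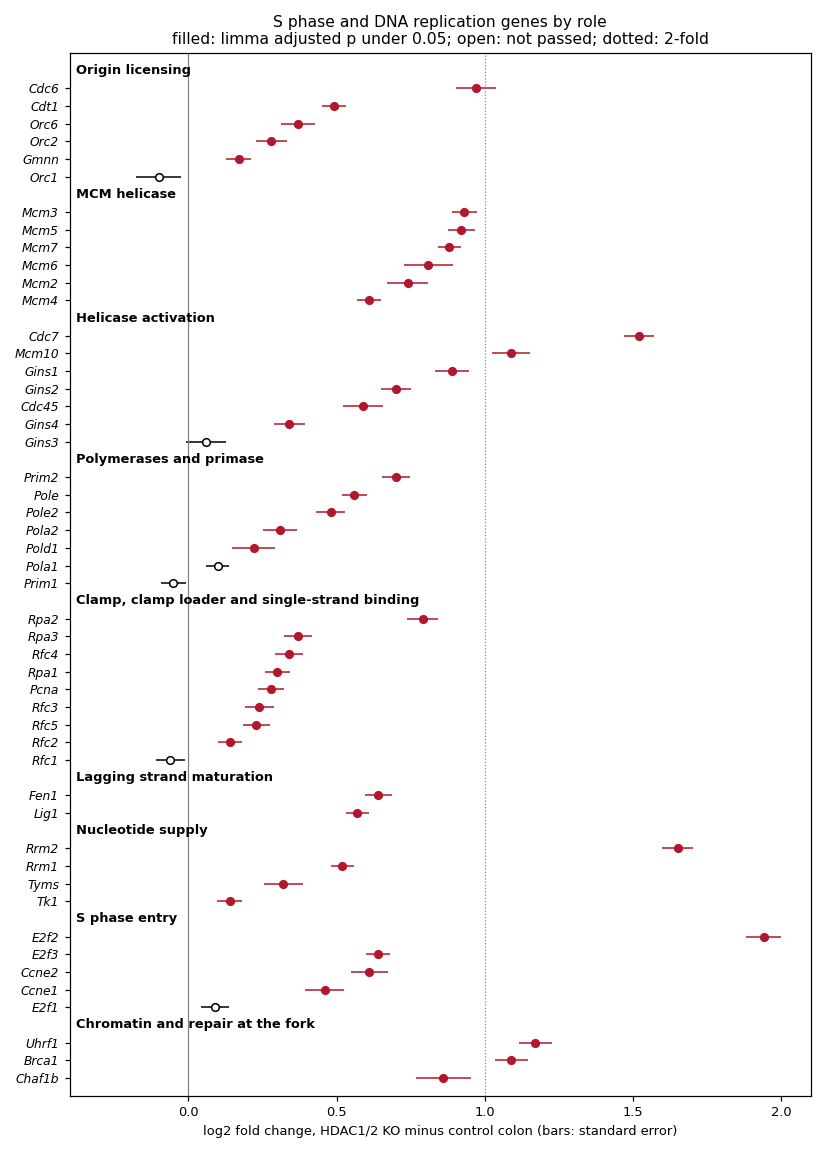
Log2 fold change (HDAC1/2 KO minus control colon, horizontal axis) of each of 49 S phase and DNA replication genes, grouped by role, with standard errors from limma. Filled points passed at an adjusted p under 0.05 and open points did not; the 43 that passed all lie right of 0, and E2f2, Rrm2 and Cdc7 lie farthest right.

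Several facts about the arrays stand beside every result. Hdac1 was at 9.27, 9.21 and 9.32 on the KO arrays and 10.60, 10.53 and 10.56 on the control arrays, whereas Hdac2 differed by 0.05 and did not pass (limma adjusted p = 0.475), and whether its probes match deleted exons is unknown here. Arrays of 1 group were close, with a median SD over the 49 genes of 0.0374 in KO and 0.0567 in control colon. P-values measure only the spread between these arrays, and their number limits the precision. The Y-linked Eif2s3y was at 8.22 to 8.49 on the KO arrays and 3.84 to 4.31 on the control arrays, and Xist, the RNA of the silenced X chromosome, at 11.99 to 12.06 on the KO arrays and 12.81 to 12.88 on the control arrays, so that every KO array carried both transcripts. RNA of 1 male or 1 female mouse would not ordinarily hold both at such levels. Whether arrays hold RNA of pooled mice, or repeat the same RNA, was not tested. With pools the p-values would measure the spread between pools, and with repeats only that between measurements. Sex of the mice is not given in the labels, and its part in the results was not tested. Since Eif2s3y separated all KO from all control arrays, effects of sex and of the deletion cannot be told apart. The log2 difference between the 3′ and 5′ probe sets of beta-actin, a sign of RNA integrity, was 0.42 to 0.46 on the KO arrays and 0.59 to 0.62 on the control arrays. Its part in the results was not tested either.

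E2f2, a transcription factor gene of S phase entry, had the largest rise of all members. Its log2 signal was 10.16, 10.19 and 10.23 on the KO arrays and 8.23, 8.16 and 8.36 on the control arrays, so the groups lay far apart (log2 fold change 1.94 ± 0.0586, standard error, or 3.85-fold, limma adjusted p = 4.54e-07). Its second probe set rose by 2.03. E2f3, another activator of the family, had 9.55, 9.50 and 9.54 on the KO arrays and 8.89, 8.87 and 8.89 on the control arrays, a 1.56-fold rise (limma adjusted p = 1.28e-05). Its second probe set, at a mean signal of 7.07, overlapped between groups and did not pass (log2 fold change 0.18, limma adjusted p = 0.179). E2f1, the third activator E2F, did not pass, with 7.66, 7.64 and 7.69 on the KO arrays and 7.50, 7.62 and 7.60 on the control arrays (log2 fold change 0.09, limma adjusted p = 0.21). Its groups did not overlap, with 7.64 as the lowest KO and 7.62 as the highest control value. All 3 of its probe sets missed the test, with log2 fold changes between -0.06 and 0.13. The difference between the changes of E2f2 and E2f1 was 1.86 on the log2 scale, and that between E2f2 and E2f3 1.30. The cyclin E genes, whose products activate Cdk2 at the G1 to S transition, rose by 0.46 (Ccne1) and 0.61 (Ccne2). The brightest probe set of Ccne1 had the smaller change, and its second one rose by 0.88.

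Each of the 6 genes of the MCM ring, Mcm2 to Mcm7, rose in HDAC1/2 KO colon, by log2 fold changes from 0.61 to 0.93. Mcm3 had 9.81, 9.80 and 9.73 on the KO arrays and 8.85, 8.87 and 8.84 on the control arrays (1.90-fold, limma adjusted p = 3.20e-06). Mcm5 had 11.28, 11.26 and 11.27 on the KO arrays and 10.39, 10.28 and 10.39 on the control arrays (1.89-fold, limma adjusted p = 4.60e-06). KO and control arrays did not overlap for any of the 6 subunits, where 26.9% of all genes were separated with KO higher. Mcm7, Mcm6, Mcm2 and Mcm4 rose by 0.88, 0.81, 0.74 and 0.61, with standard errors between 0.0382 and 0.0824. Mean signal over the 6 genes was 10.81 to 10.91 on the KO arrays and 10.02 to 10.07 on the control arrays.

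Origin licensing genes, which act before the ring is loaded, changed less evenly, with a median of 0.32. In this role 5 of 6 were higher, against 21.9% of all genes. Cdc6, the ATPase that helps load the MCM ring, had 8.04, 7.97 and 8.01 on the KO arrays and 7.05, 6.90 and 7.15 on the control arrays (1.96-fold, limma adjusted p = 2.20e-05). Cdt1, its loading partner, had 11.01, 11.00 and 11.00 on the KO arrays and 10.56, 10.49 and 10.50 on the control arrays (1.40-fold, limma adjusted p = 5.58e-05). Gmnn, which encodes geminin, the inhibitor of Cdt1, rose by 0.17, and its call was lost without KO array 1 (limma adjusted p = 0.0513). Of the origin recognition complex, Orc6 rose by 0.37 and Orc2 by 0.28. For Orc1, the largest ATPase subunit, the probe sets disagreed. The brightest one had 7.62, 7.69 and 7.84 on the KO arrays and 7.84, 7.92 and 7.70 on the control arrays, which overlap (log2 fold change -0.10, limma adjusted p = 0.352). The dimmer one had 7.41, 7.49 and 7.39 on the KO arrays and 6.96, 6.96 and 6.94 on the control arrays (log2 fold change 0.48, limma adjusted p = 8.97e-05).

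Genes that activate the loaded helicase included strong rises, and 6 of 7 were higher, against 21.9% of all genes. Cdc7, the catalytic subunit of the kinase that phosphorylates the MCM ring, had 8.20, 8.21 and 8.18 on the KO arrays and 6.73, 6.59 and 6.70 on the control arrays (2.88-fold, limma adjusted p = 6.14e-07). Its second probe set missed the test, with 7.13, 7.52 and 7.33 on the KO arrays and 7.02, 7.16 and 7.08 on the control arrays (log2 fold change 0.24, limma adjusted p = 0.0888), so the rise of Cdc7 rests on 1 of its 2 probe sets. Mcm10, which helps the assembled helicase start unwinding, had 9.32, 9.31 and 9.11 on the KO arrays and 8.18, 8.13 and 8.15 on the control arrays (2.14-fold, limma adjusted p = 9.98e-06). Its 2 other probe sets, at mean signals of 6.27 and 4.80, did not pass (log2 fold changes of -0.03 and -0.07). Cdc45, a partner of the MCM ring at the fork, rose by 0.59. The GINS complex was uneven: Gins1 rose by 0.89, Gins2 by 0.70 and Gins4 by 0.34, whereas Gins3 had 7.38, 7.50 and 7.63 on the KO arrays and 7.43, 7.40 and 7.51 on the control arrays, which overlap (log2 fold change 0.06, limma adjusted p = 0.563).

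**Figure D2:**
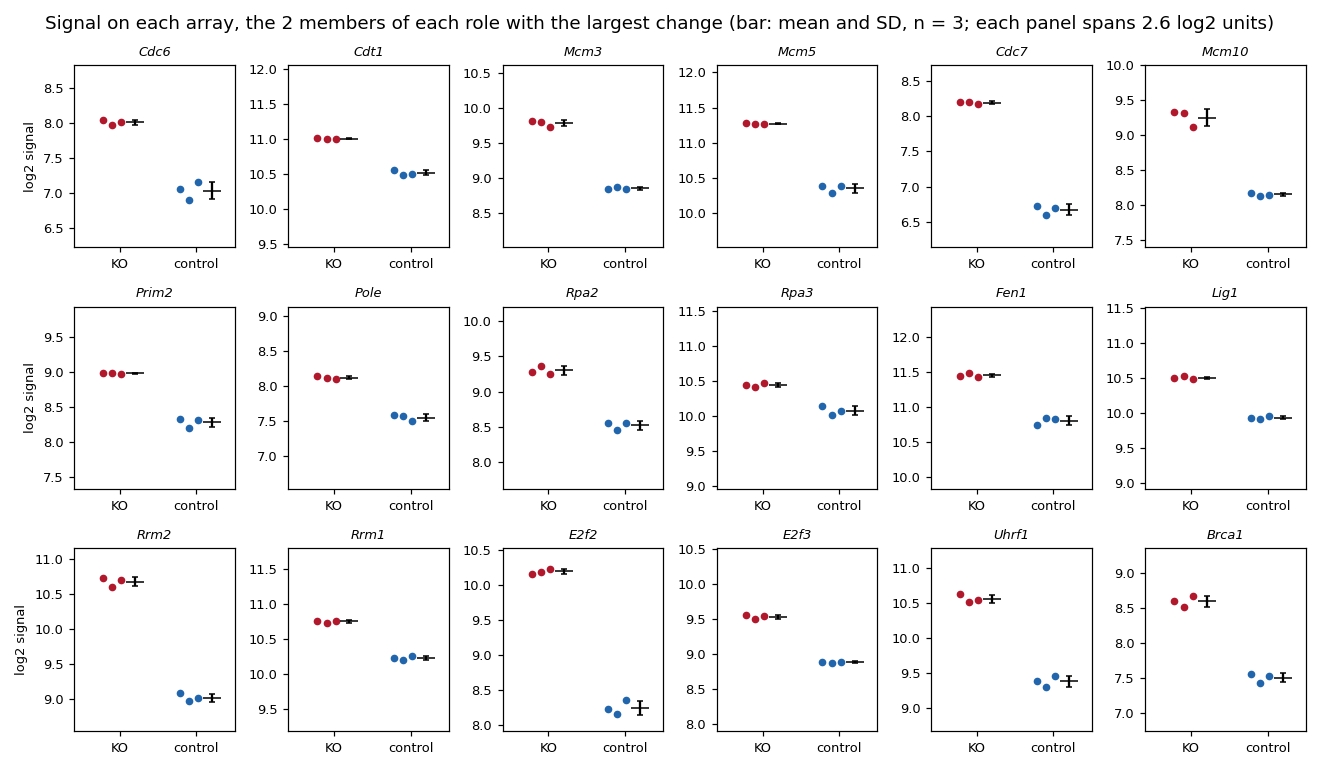
Log2 signal on each of the 3 HDAC1/2 KO arrays (red, left) and 3 control arrays (blue, right) for the 2 genes of each role with the largest absolute change, with the mean and SD beside the points. In all 18 genes every KO array lies above every control array, against 26.9% of all genes. Because these genes were chosen for their change, that separation is no separate result. The gap is widest for E2f2 (10.16 to 10.23 against 8.16 to 8.36).

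Polymerase and primase genes rose in 5 of 7 cases, against 21.9% of all genes, with a median of 0.31. Prim2, the large primase subunit, had 8.98, 8.98 and 8.97 on the KO arrays and 8.33, 8.20 and 8.31 on the control arrays (1.62-fold, limma adjusted p = 2.05e-05). Prim1, the catalytic primase subunit, had 9.52, 9.47 and 9.52 on the KO arrays and 9.58, 9.52 and 9.55 on the control arrays (log2 fold change -0.05, limma adjusted p = 0.411), and its other probe set differed by 0.02. The subunits of primase thus differed by 0.75 in their change. Pole, the catalytic subunit of the leading strand polymerase epsilon, had 8.14, 8.11 and 8.10 on the KO arrays and 7.58, 7.57 and 7.50 on the control arrays (1.48-fold, limma adjusted p = 3.44e-05), and its partner Pole2 rose by 0.48. Pola1, the catalytic subunit of polymerase alpha, had 9.03, 9.00 and 9.03 on the KO arrays and 8.93, 8.90 and 8.94 on the control arrays. Its groups did not overlap, but the difference of 0.10 did not pass (limma adjusted p = 0.078). Pola2, the accessory subunit, rose by 0.31. Pold1, the catalytic subunit of the lagging strand polymerase delta, rose by 0.22 (limma adjusted p = 0.0438) but no longer passed when any 1 was left out of KO arrays 1, 2 and 3 and control arrays 1 and 2 (limma adjusted p from 0.0532 to 0.126).

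Clamp, clamp loader and single-strand binding genes had the lowest median change of the 9 roles, 0.28. In this role 8 of 9 were higher, against 21.9% of all genes. Pcna, the sliding clamp and the brightest member, had 12.63, 12.67 and 12.59 on the KO arrays and 12.35, 12.31 and 12.38 on the control arrays (1.22-fold, limma adjusted p = 0.00134). The small subunits of the clamp loader, Rfc2 to Rfc5, rose by 0.14 to 0.34. The large subunit, Rfc1, had 9.74, 9.78 and 9.66 on the KO arrays and 9.76, 9.76 and 9.83 on the control arrays (log2 fold change -0.06, limma adjusted p = 0.414). None of its 3 probe sets passed. Rfc2 lost its call without any 1 of KO arrays 1, 2 and 3 and control arrays 1 and 2 (limma adjusted p from 0.0583 to 0.0741). Among the subunits of RPA, which coats single-stranded DNA, Rpa2 had 9.28, 9.37 and 9.25 on the KO arrays and 8.55, 8.45 and 8.55 on the control arrays (1.72-fold, limma adjusted p = 2.05e-05). Rpa3 had 10.45, 10.41 and 10.47 on the KO arrays and 10.14, 10.02 and 10.07 on the control arrays (1.29-fold, limma adjusted p = 4.91e-04), and Rpa1 rose by 0.30. The enzymes that finish Okazaki fragments rose together. Fen1, the flap nuclease, had 11.44, 11.48 and 11.43 on the KO arrays and 10.74, 10.85 and 10.83 on the control arrays (1.56-fold, limma adjusted p = 2.57e-05). Lig1, the ligase that seals the nicks, had 10.50, 10.52 and 10.49 on the KO arrays and 9.93, 9.91 and 9.96 on the control arrays (1.49-fold, limma adjusted p = 2.17e-05).

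All 4 genes of nucleotide supply rose, against 21.9% of all genes, and Rrm2 had the second largest rise of all members. Rrm2, the S phase subunit of ribonucleotide reductase, had 10.72, 10.60 and 10.69 on the KO arrays and 9.08, 8.97 and 9.01 on the control arrays (log2 fold change 1.65 ± 0.052, standard error, or 3.14-fold, limma adjusted p = 5.55e-07). Its 2 other probe sets rose by 1.72 and 1.62. Rrm1, the catalytic subunit of the same enzyme, had 10.76, 10.73 and 10.76 on the KO arrays and 10.23, 10.20 and 10.26 on the control arrays (1.43-fold, limma adjusted p = 3.89e-05), so the subunits differed by 1.13 in their change. Tyms, which makes thymidylate from deoxyuridylate, rose by 0.32, at the lowest signal of the 49 genes, and its 3 other probe sets, at mean signals of 4.57 to 4.67, did not pass. A probe set that the annotation gives to both Tyms and Tyms-ps was not used. Tk1, the thymidine kinase of the salvage pathway, rose by 0.14 (limma adjusted p = 0.0294), and lost its call without any 1 of KO arrays 1, 2 and 3 and control arrays 2 and 3 (limma adjusted p from 0.0525 to 0.0819).

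Genes of chromatin and repair at the fork had the highest median change of the 9 roles, 1.09 over 3 genes. Uhrf1, which brings the maintenance DNA methyltransferase to newly copied DNA, had 10.62, 10.51 and 10.54 on the KO arrays and 9.39, 9.30 and 9.46 on the control arrays (2.25-fold, limma adjusted p = 3.68e-06). Brca1, a gene of homologous recombination and fork protection, had 8.60, 8.51 and 8.67 on the KO arrays and 7.55, 7.43 and 7.53 on the control arrays (2.13-fold, limma adjusted p = 5.67e-06). Its other probe sets, at mean signals of 5.27 to 6.54, changed less, by 0.39, 0.42 and -0.00, and the last did not pass. Chaf1b, a subunit of the chromatin assembly factor that deposits histones behind the fork, rose by 0.86.

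Unequal changes within an enzyme or family were compared for 8 pairs chosen after their values were seen, as the within-array difference on the log2 scale. The differences ranged from 0.34 (Pole against Pold1) to 1.86 (E2f2 against E2f1), with Gins1 against Gins3 at 0.84, Rpa2 against Rpa1 at 0.48 and Rfc4 against Rfc1 at 0.39. SDs of the within-array differences over 3 arrays were 0.0268 to 0.0954 in KO and 0.0391 to 0.161 in control colon. Because the pairs were picked for their values, no test is given.

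**Figure D3:**
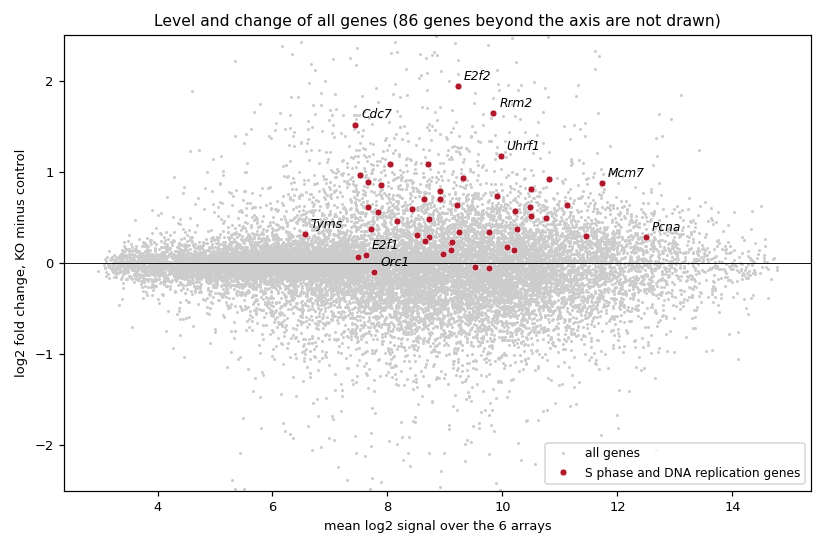
Mean log2 signal over the 6 arrays (horizontal axis) and log2 fold change, HDAC1/2 KO minus control (vertical axis), of all genes in grey and of the 49 S phase and DNA replication genes in red. The red points lie mostly above 0 from Tyms (mean 6.56) to Pcna (mean 12.49), and 86 genes beyond 2.5 either way are not drawn.

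The other probe sets of the same genes gave a further reading of the same arrays, for 38 members that have more than 1. Of 59 such probe sets, 30 rose, 0 fell and 29 did not pass, where 18.8% of all probe sets were higher and 21% lower. Signal separated them: of 35 with a mean log2 signal of 7 or more, 25 rose, with a median of 0.59, and of 24 dimmer ones 5 rose, with a median of 0.03. The value of 7 was chosen after the data were seen. In 44 of the 49 genes at least 1 probe set rose. A gene with several probe sets has more occasions to be counted this way, and the like share of all genes was not computed. Of the 32 raised genes with more than 1 probe set, 21 had another that rose, and the rise of the other 11 rests on the brightest alone (Cdc45, Cdc7, Chaf1b, E2f3, Gins1, Mcm10, Pola2, Pold1, Pole2, Rfc2 and Tyms). At a mean signal of 7 or more, the probe sets of raised genes that did not pass were 1 each of Cdc45 (log2 fold change 0.01), Mcm3 (0.08), Pold1 (0.12), E2f3 (0.18) and Cdc7 (0.24) and 2 of Rfc2 (0.12 and 0.18). For Fen1 and Mcm4 the second probe set rose further than the brightest, by 1.18 and 0.96.

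**Figure D4:**
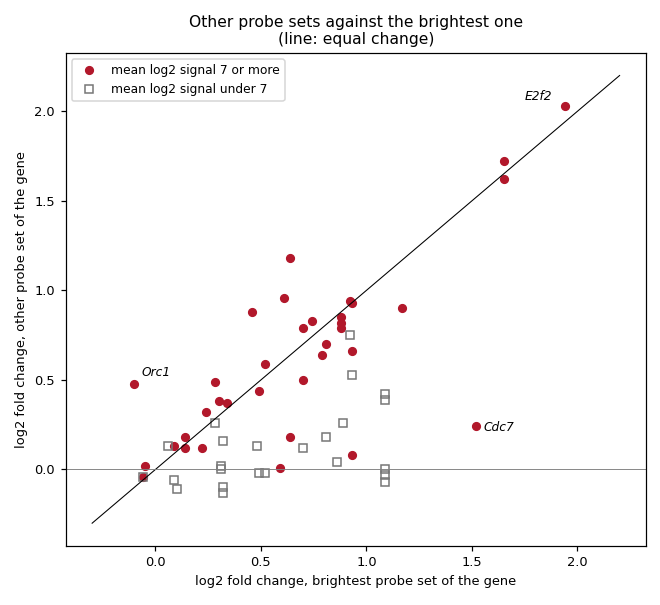
Log2 fold change of the brightest probe set of a gene (horizontal axis) against that of each of its other probe sets (vertical axis), HDAC1/2 KO minus control, with a line of equal change. Red circles have a mean log2 signal of 7 or more and lie mostly near the line, with Cdc7 (1.52 and 0.24) and Orc1 (-0.10 and 0.48) away from it, and grey squares are dimmer and lie mostly near 0.

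Other genes of the replication pathway rose less uniformly. Of 65 measured, 44 rose, 6 fell and 15 did not pass, with a median log2 fold change of 0.28. Among all genes 21.9% were higher and 28.4% lower. The largest rises were in Asf1b (1.03), a histone chaperone of S phase, and Dscc1 (0.98), a subunit of an alternative clamp loader. Asf1b had 9.92, 10.00 and 9.94 on the KO arrays and 8.94, 8.89 and 8.94 on the control arrays. Shmt1, a folate enzyme that feeds thymidylate synthesis, fell the most, with 9.35, 9.41 and 9.37 on the KO arrays and 10.04, 10.09 and 10.12 on the control arrays (log2 fold change -0.71, limma adjusted p = 1.33e-05). Dbf4, the activating partner of Cdc7 and named for that, rose by 0.71. Of the E2F network, singled out after its values were seen, the repressor genes E2f6, E2f7 and E2f8 rose by 0.22, 0.78 and 0.97, whereas E2f4 (0.02) and E2f5 (-0.25) did not pass. The pocket protein genes were split, all passing the test, with Rb1 at 0.17, Rbl1 at -0.21 and Rbl2 at -0.53. Genes of the E2F dimerization partners were split too, with Tfdp1 at 0.28 and Tfdp2 at -0.43.

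Mitosis genes rose as well. Of 19 measured, 18 rose and 1, Ccnb2, did not pass (-0.07), with a median of 0.54. Plk1 and Bub1, kinase genes of mitotic entry and of the spindle checkpoint, rose the most, by 1.02 and 0.89. In their promoter windows the E2F letters stood in 1 of 17 mitosis genes with a window (5.88%), the letters CCAAT in 82.4% and the letters TTTGAA in 70.6%, where the S phase members had 39%, 63.4% and 17.1%. Among D-type cyclins, their kinases and CDK inhibitors, 8 of 12 rose (66.7%) and 4 fell (33.3%), where 21.9% of all genes were higher and 28.4% lower. Cdkn2a, which encodes inhibitors of G1 kinases and of p53 degradation, rose by 0.69 at the low signal of 5.82 to 5.86 on the KO arrays and 4.94 to 5.29 on the control arrays. Cdkn2d, an inhibitor of Cdk4 and Cdk6, rose by 0.61, and Ccnd1, the cyclin D1 gene, by 0.59. Cdkn2b, another inhibitor of the same kinases, fell the most, to 10.17, 10.20 and 10.18 on the KO arrays, against 10.86, 10.85 and 10.83 on the control arrays (log2 fold change -0.66).

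**Figure D5:**
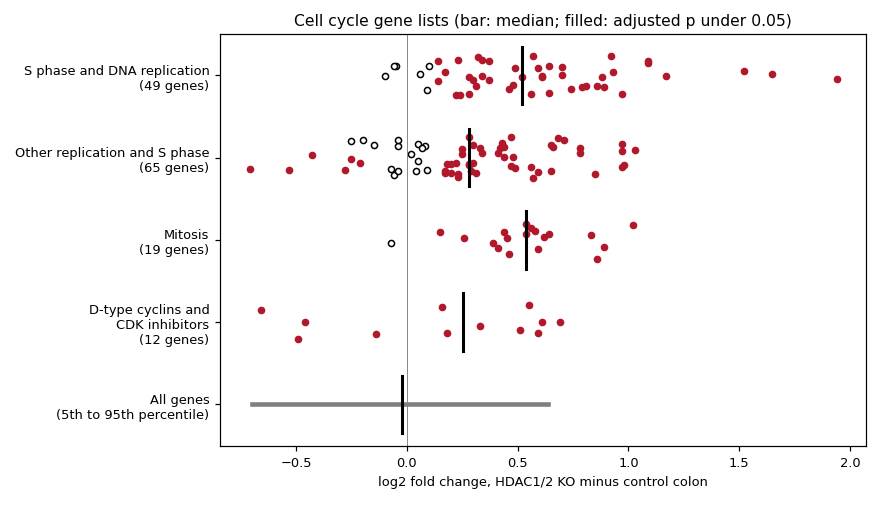
Log2 fold changes (HDAC1/2 KO minus control colon, horizontal axis) of single genes in 4 cell cycle lists, with list medians as black bars, filled points for genes past the test and, for all genes, a grey bar from -0.70 to 0.64. The medians are 0.52 for S phase and DNA replication, 0.28 for other replication genes, 0.54 for mitosis and 0.25 for D-type cyclins and CDK inhibitors.

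Members whose promoter windows held the E2F letters were not uniform in their change. Over 16 such genes the log2 fold change ranged from -0.10 (Orc1) to 1.94 (E2f2), with a median of 0.60. Over the 24 measured members with a window and without these letters it ranged from -0.06 (Rfc1) to 1.65 (Rrm2), with a median of 0.37. The ranges overlap almost whole. Of the 6 members that rose more than 2-fold, E2f2 and Uhrf1 held the letters, and Cdc7, Rrm2, Mcm10 and Brca1 did not. The part of E2F factors in the rise was not tested.

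Markers of other cell types moved with the groups as well. Pancreatic acinar and squamous cells, listed among them, are not cells of the colon mucosa. All 5 measured B cell genes rose, with a mean log2 signal over the list of 8.58 to 8.63 on the KO arrays and 7.57 to 7.62 on the control arrays, as did all 5 plasma cell genes (11.53 to 11.59 in KO and 10.65 to 10.73 in control). Of 6 T cell genes 4 rose (7.69 to 7.84 in KO and 7.03 to 7.16 in control). All 7 macrophage genes rose (10.17 to 10.18 in KO and 9.13 to 9.23 in control). None of 4 germinal centre B cell genes passed, a list that would mark dividing B cells, with 6.75 to 6.95 on the KO arrays and 6.68 to 6.69 on the control arrays. The defining epithelial markers were bright in both groups (13.90 to 13.92 in KO and 13.78 to 13.80 in control), with 4 of 8 higher, 1, Epcam, lower and 3 not past the test. All 7 smooth muscle genes fell (12.39 to 12.46 in KO and 12.88 to 12.89 in control), 5 of 6 squamous genes fell (7.34 to 7.40 in KO and 9.65 to 9.71 in control), and all 5 pancreatic acinar genes rose (12.25 to 12.28 in KO and 6.21 to 6.29 in control). Among all genes 21.9% were higher and 28.4% lower. The part of these cells in the rise of the S phase genes was not tested. Nor was a difference between the groups in the tissue or region sampled.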

How the data were processed

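Colon RNA of 3 HDAC1/2 KO and 3 control mice, by the methods, was measured on Affymetrix mouse whole-genome expression arrays. Arrays were grouped by sample title, and whether each holds RNA of a single mouse was not settled. The authors made the deposited log2 signals with RMA in Flexarray, which corrects background, normalizes between arrays and summarizes probes (the submitters' processing notes also name RMA). Without 64 control probe sets, 45037 of 45101 entered 1 fit of group with limma (lmFit, eBayes; version 3.58.1, R version 4.3.3), without covariates. Adjusted p-values (Benjamini-Hochberg) cover all 45037, and 0.05 was the threshold. In the platform annotation 34945 probe sets have 1 symbol, 932 several and 9160 none, and a probe set with several named no gene. Values beside a gene are log2 signals, and fold changes are HDAC1/2 KO over control. Members and lists were chosen with earlier results of these data known, so counts are set beside the share of all genes called and no set test was run. Per-array values are given for the 2 genes of each role with the largest absolute change and for those that did not pass; of other lists, the 2 largest rises and the largest fall are named, with Dbf4, Ccnd1 and the E2F network added after values were seen. Alternatives were the methods' t-test, quantile normalization again, median centring, a filter at the 40th percentile of mean signal, a robust eBayes with an intensity trend, weighting of arrays, removal of probe sets ending in _s_at or _x_at, averaging a gene over its probe sets, a replicate block, and leaving out each array. The scripts were tested on simulated data. Figures used matplotlib 3.10.9. No scan date was given in the sources used here, so no batch could be tested.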

Additional observations from a re-analysis of the deposited data

How the results depend on the processing

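The count of S phase and DNA replication genes that rose stayed between 39 and 44 under all 16 alternatives, against 43, and the count that fell stayed at 0 in each. Without any 1 array 39 to 42 rose. Of the 49 genes, 39 kept direction and side of the threshold under every alternative. Averaging all probe sets of a gene, which adds dim ones, brought the genes raised more than 2-fold to 3 and the median log2 fold change to 0.37, gave Orc1 a rise of 0.19 and Pola1 a change of -0.01. Without probe sets ending in _s_at or _x_at the median was 0.56. Leaving out 1 array moved Gins3 between -0.01 and 0.12. Deviations of same-numbered arrays from their group means correlated at 0.0964, 0.0640 and -0.0258. With so few arrays that differ so little within a group, these values cannot show whether the replicate numbers pair the arrays. With the replicate number as a block 40 genes rose, Pold1, Rfc2 and Tk1 losing their calls. The methods' t-test called 43 higher at its unadjusted threshold and 39 after Benjamini-Hochberg. Of the 24 other probe sets with a mean under 7, 5 rose, where 18.8% of all probe sets were higher. Why dim probe sets rose less often was not tested.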
